A study of Mus musculus with 4 samples.

Results

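The 9 genes described here encode the receptors for stem cell factor (SCF), interleukin 3 (IL-3), GM-CSF and interleukin 6 (IL-6), with the receptors for G-CSF and FLT3 ligand added. They were chosen by name from 14323 gene symbols in the table, and all 9 were listed. They are Kit, Il3ra, Csf2ra, Csf2rb, Csf2rb2, Il6ra, Il6st, Csf3r and Flt3. SCF, IL-3, GM-CSF and IL-6 were the cytokines added to the medium, and G-CSF and FLT3 ligand were not among them.

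RNA came from colonies of sorted short-term haematopoietic stem cells (ST-HSCs) or MPP2 cells, a multipotent progenitor with a bias to platelet and red cell precursors, of C57BL/6 background. Both kinds came from a model mouse in which 4-hydroxytamoxifen (4OHT) switches on MLL-ENL, a leukaemia fusion gene. The ethanol cultures come from the same model, whose allele and promoter no source used here names. The fusion transcript has no row of its own in the table, so its induction was not checked. The 4 groups were ST-HSC with ethanol (control), ST-HSC with 0.05 µM 4OHT (MLL-ENL), MPP2 with ethanol (control) and MPP2 with 0.05 µM 4OHT (MLL-ENL), with 1 library each. Each culture started from 100 cells in 1 ml of methylcellulose medium with SCF at 25 ng/ml and IL-6, IL-3 and GM-CSF at 10 ng/ml each, and ran for 5 to 7 days. Where 4 values follow each other, the ST-HSC cultures come first and the MPP2 cultures last, with ethanol before 4OHT in each.

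Kit and Flt3 are receptor tyrosine kinases, which carry their own enzyme in the cytoplasmic part. The other receptors belong to the class I cytokine receptors, which have no kinase of their own and signal through bound JAK kinases to STAT factors. IL-3 and GM-CSF receptors each pair a ligand-specific alpha chain (Il3ra, Csf2ra) with a beta chain. Csf2rb encodes the common beta chain of both and of the IL-5 receptor, and mice carry a second copy, Csf2rb2, whose product serves IL-3 alone. IL-6 binds the alpha chain Il6ra and then gp130, encoded by Il6st, which is also the signalling chain for LIF, oncostatin M, IL-11 and IL-27. G-CSF and its receptor Csf3r drive neutrophil production.

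Recovered depth was between 12907412 and 14317891 reads a library. Levels are normalized counts, in which 1 read was worth 0.0695 to 0.0802. Of the listed genes, 11370 reached an average of 1 normalized count over the libraries and were tested, among them 8 of the 9 receptors. Flt3 fell under that filter. A difference between single libraries has no replicate check, and its 95% interval covers counting error only. A test was possible only for the cell type difference shared by both treatments and for the 4OHT effect shared by both cell types, from limma on log2 values after adding 0.5. Nothing in the labels says that libraries came from separate cultures or animals beyond their group, so p-values do not measure variation between cultures or animals. They rest on the spread left between these 4 samples, which limma pools in part over all tested genes. For a single gene that spread is only the difference of its 4OHT effect between cell types. The SEs therefore reflect the pooled spread more than that of the gene itself. Among marker lists, neutrophil genes had the highest summed level in every library (25003 to 45453 normalized counts). The RNA is that of colony cells, not of the sorted cells. Stem and progenitor markers, 13 of 13 listed, summed to 141 to 215 normalized counts, with Kit alone at 76.4 to 92.9. Among them Ly6a had 400, 855, 342 and 399 reads, Cd34 had 172, 376, 342 and 261, and Slamf1 had 0, 0, 44 and 31.

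Csf2rb and Csf2rb2 were the most abundant receptor transcripts per kilobase of merged exons. Csf2rb stood at 95.3 normalized counts per kilobase in ST-HSC ethanol, 100.7 in ST-HSC 4OHT, 144.8 in MPP2 ethanol and 127 in MPP2 4OHT. Csf2rb2 followed in every library, at 30.02, 33.2, 96.3 and 68.3 per kilobase in the same order. Next on this scale were Csf2ra (27.6 to 41.2), Csf3r (22.04 to 27.2) and Kit (8.57 to 10.4). The ranks of these 5 genes were the same in each of the 4 libraries. Il3ra (1.94 to 4.27), Il6st (1.07 to 4.52) and Il6ra (1.47 to 2.19) overlapped per kilobase, and their order changed between libraries. Flt3 was last everywhere, at most 0.14 per kilobase.

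**Figure D1:**
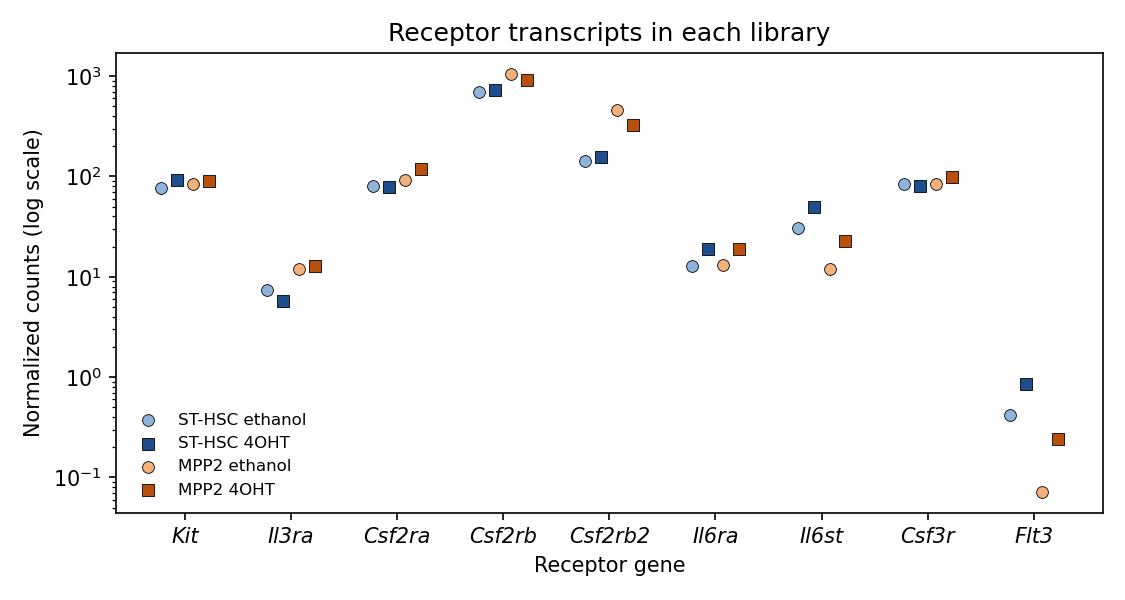
Normalized counts (log scale) of the 9 receptor genes in the 4 libraries, 1 point per library. Levels are not divided by gene length here. Csf2rb lies between 694 and 1053, and Flt3 under 1. The MPP2 points stand above the ST-HSC points for Csf2rb2, Csf2rb, Il3ra, Csf2ra and, barely, Csf3r. They stand below them for Il6st and Flt3.

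The beta chain genes lie next to each other on chromosome 15 of GRCm38, in opposite directions. Csf2rb spans 78325752 to 78353847 on the plus strand and Csf2rb2 spans 78282507 to 78305721 on the minus strand. Their coding sequences, of 2688 and 2634 bases, had 95.2% identical bases over 2628 aligned positions, with an unbroken identical run of 242 bases. Reads from such stretches cannot be assigned to one copy, so the split between both genes is uncertain where the authors' counting had to divide them. Of the 31-base words of all Csf2rb2 transcripts, 30.1% also occur in another gene, against 19.6% for Csf2rb. At a word length of 100 bases, 7.20% of the main Csf2rb2 transcript was found in the main Csf2rb transcript. The pair of 90-base stretches that differ most, at 16 bases, lies in exon 4 of both and is shown to let a reader see what separates the copies, with the differing bases in capitals. They are chr15:78338897-78338986 on the plus strand for Csf2rb and chr15:78294345-78294434 on the minus strand for Csf2rb2, each read 5′ to 3′ from GENCODE M21 transcripts.
Csf2rb: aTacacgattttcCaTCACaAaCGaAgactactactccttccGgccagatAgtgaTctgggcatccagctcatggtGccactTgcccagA
Csf2rb2: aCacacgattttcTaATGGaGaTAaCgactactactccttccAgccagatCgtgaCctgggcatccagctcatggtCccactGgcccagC
A stretch in exon 8, chr15:78341658-78341747 in Csf2rb and chr15:78291563-78291652 in Csf2rb2, has 0 differing bases and is the same run in both genes.
Csf2rb and Csf2rb2: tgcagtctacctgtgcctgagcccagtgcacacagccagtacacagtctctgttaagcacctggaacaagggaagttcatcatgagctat

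The comparison of MPP2 with ST-HSC cultures asks how the progenies of both starting cells differ in their receptors. Chains of the IL-3 receptor were more abundant in MPP2 cultures, and gp130 was less abundant there. Of 8 receptors tested with limma, 2 were higher in MPP2 cultures (Csf2rb2 and Il3ra) and 1 was lower (Il6st). Over all tested genes 9.88% were called higher and 5.31% lower.

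Csf2rb2 had 142 normalized counts in ST-HSC ethanol, 157 in ST-HSC 4OHT, 456 in MPP2 ethanol and 324 in MPP2 4OHT. Both MPP2 libraries lay above both ST-HSC libraries. The MPP2 to ST-HSC ratio was 3.21 in ethanol (counting interval 3.05 to 3.37) and 2.06 under 4OHT (1.95 to 2.17). The shared log2 difference was 1.36 ± 0.19 (SE, limma over 4 libraries, adjusted p = 0.0214), and the adjusted p was between 3.4e-06 and 0.0505 over 8 alternative settings, above 0.05 only when low genes were not filtered.

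Csf2rb showed the same order of groups at a smaller size, with 694, 733, 1053 and 925 normalized counts. Its ratio was 1.52 in ethanol (1.48 to 1.56) and 1.26 under 4OHT (1.23 to 1.30), and the shared log2 difference of 0.47 ± 0.14 did not pass limma's threshold (adjusted p = 0.0815). It passed under 4 of 8 alternatives, limma with a mean-variance trend (adjusted p = 0.0123), edgeR on recovered reads (0.0155), 2 added before logs (0.0386) and a filter at a mean of 5 (0.037). These called 16.7%, 16.5%, 14% and 13.9% of tested genes higher. Csf2ra passed under limma with trend and edgeR as well. The sum of both beta chain genes does not depend on how shared reads were split between them. It was 836, 890.1, 1509.9 and 1248 normalized counts, a ratio of 1.81 in ethanol (1.77 to 1.85) and 1.40 under 4OHT (1.37 to 1.44). Csf2rb2 made up 17.02% of that sum in ST-HSC ethanol, 17.7% in ST-HSC 4OHT, 30.2% in MPP2 ethanol and 25.9% in MPP2 4OHT.

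Il3ra, the alpha chain that gives IL-3 its specificity, lies at chromosome 14, 14346275 to 14356011. It had 7.44 normalized counts (107 reads) in ST-HSC ethanol and 5.75 (80 reads) in ST-HSC 4OHT. In MPP2 cultures it had 11.9 (165 reads) with ethanol and 12.7 (158 reads) with 4OHT. MPP2 libraries were again the higher ones, with ratios of 1.60 (1.25 to 2.06) and 2.20 (1.67 to 2.92). The shared log2 difference was 0.86 ± 0.16 (limma, adjusted p = 0.0348), and the call was lost with 0.1 added before logs (adjusted p = 0.0578) and without the filter on low genes (0.0689). At these levels Il3ra was the scarcer partner, at 0.0417 to 0.0836 of Csf2rb2 per kilobase.

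Csf2ra, the alpha chain for GM-CSF at chromosome 19, 61223957 to 61228429, had 80.9, 79.2, 92.4 and 118 normalized counts. MPP2 libraries were higher by a ratio of 1.14 in ethanol (1.05 to 1.24) and 1.49 under 4OHT (1.38 to 1.61), and the shared log2 difference of 0.38 ± 0.15 gave an adjusted p of 0.141 in limma. Per kilobase, Csf2ra stood at 0.222 to 0.324 of Csf2rb.

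Il6st, at chromosome 13, 112464070 to 112510086, had the widest spread of the tested receptors, 4.24-fold between its lowest and highest library. It had 30.8 normalized counts in ST-HSC ethanol, 50.2 in ST-HSC 4OHT, 11.8 in MPP2 ethanol and 22.8 in MPP2 4OHT. Both ST-HSC libraries lay above both MPP2 libraries. The MPP2 level was 0.384 of the ST-HSC level in ethanol (0.319 to 0.461) and 0.454 under 4OHT (0.394 to 0.522). The shared log2 difference was -1.23 ± 0.14 (limma, adjusted p = 0.0128), with adjusted p between 1.5e-05 and 0.036 over the 8 alternatives. In ethanol 0.862% of tested genes were at least 2-fold lower in MPP2 cultures and 6.27% at least 2-fold higher, and under 4OHT 1.71% and 5.39%. Il6st was the 1 receptor past 2-fold lower in both, Csf2rb2 was past 2-fold higher in both, and Il3ra under 4OHT only. With scaling to total reads, Csf2rb2 under 4OHT stood at log2 0.96, just short of 2-fold.

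Il6ra, the ligand-binding chain at chromosome 3, 89864059 to 89913196, showed no such split, with 12.7 and 18.8 normalized counts in ST-HSC cultures and 13.0 and 18.9 in MPP2 cultures. Its MPP2 to ST-HSC ratio was 1.02 in ethanol (0.826 to 1.26) and 1.01 under 4OHT (0.840 to 1.20). Per kilobase, gp130 transcripts stood at 1.89 and 2.07 times those of Il6ra in ST-HSC cultures, with ethanol and 4OHT. In MPP2 cultures they stood at 0.709 and 0.937 times.

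**Figure D2:**
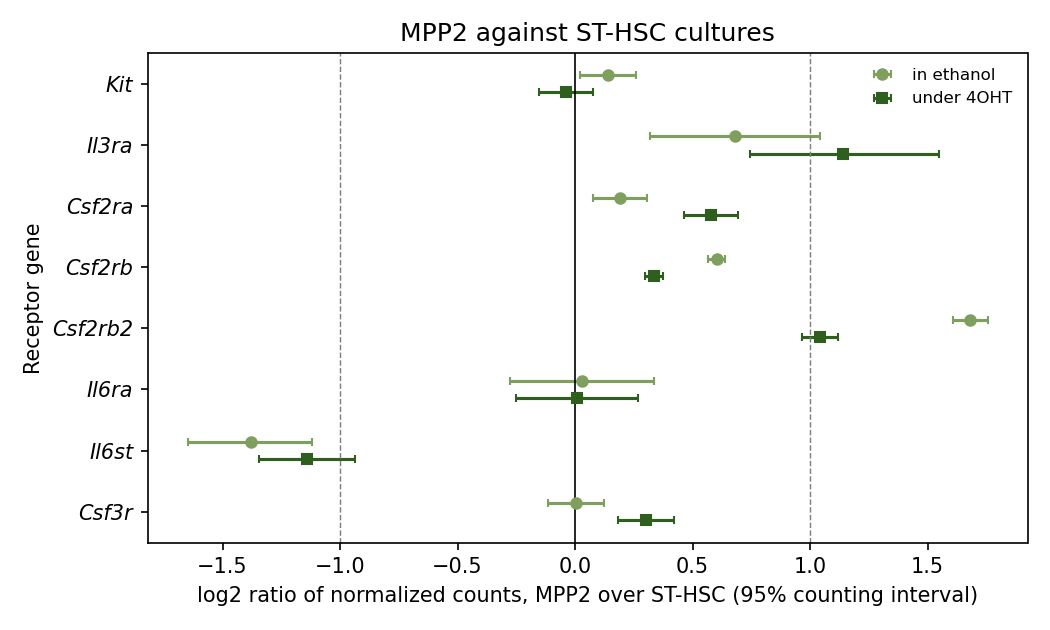
log2 ratio of normalized counts in MPP2 over ST-HSC cultures for the 8 tested receptors, in ethanol (circles) and under 4OHT (squares), with bars for the 95% counting interval and dashed lines at 2-fold. Csf2rb2 lies past the right line in both media and Il6st past the left one.

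Kit, the SCF receptor at chromosome 5, 75574916 to 75656722, is a mark of stem and progenitor cells and stays high on mast cells. It had 76.4 normalized counts in ST-HSC ethanol, 92.9 in ST-HSC 4OHT, 84.1 in MPP2 ethanol and 90.5 in MPP2 4OHT. Its range was narrow, 1.22-fold from lowest to highest, and the MPP2 to ST-HSC ratio was 1.10 in ethanol (1.01 to 1.20) and 0.974 under 4OHT (0.898 to 1.06). The shared cell type difference was 0.05 ± 0.13 in log2 (limma, adjusted p = 0.807).

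Csf3r, at chromosome 4, 126024550 to 126044440, was as even, at 83.3, 79.6, 83.5 and 98.0 normalized counts. Its shared cell type difference was 0.15 ± 0.14 in log2 (limma, adjusted p = 0.472). Of its 31-base words 23.1% occur in another gene, most of them in a processed pseudogene on chromosome 19, so its value is uncertain to that extent.

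Flt3, at chromosome 5, 147330741 to 147400489, marks lymphoid-primed progenitors and dendritic cell precursors. It was barely read, with 6 reads in ST-HSC ethanol, 12 in ST-HSC 4OHT, 1 in MPP2 ethanol and 3 in MPP2 4OHT. The ratio of MPP2 to ST-HSC cultures was 0.173 in ethanol (0.00376 to 1.43) and 0.279 under 4OHT (0.0505 to 1.03). Each interval includes 1, so neither pair alone showed a difference at this depth. Without the filter on low genes, the shared log2 difference was -0.78 ± 0.14 (limma, adjusted p = 0.0625), which did not pass the threshold.

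Marker genes of several cell types moved with the receptors between cell types. Mast cell and basophil markers, of which 12 of 13 were listed, summed to 165 normalized counts in ST-HSC ethanol, 88.5 in ST-HSC 4OHT, 1806 in MPP2 ethanol and 587 in MPP2 4OHT. The mast cell proteases Tpsb2 and Mcpt4 were at 0 reads in both ST-HSC libraries, and Cma1 in ST-HSC 4OHT. Megakaryocyte markers, 9 of 9 listed, summed to 87.8, 69.8, 731 and 653. Markers on the dendritic list, 8 of 9 listed, summed to 199.6, 303, 93.2 and 201. That sum was nearly all from Cd74, H2-Aa and H2-Ab1, of the MHC class II pathway, and Itgax, which other antigen-presenting and myeloid cells express too. Dendritic cell genes Xcr1 (18, 15, 10 and 10 reads), Clec9a (1, 0, 7 and 3) and Zbtb46 (4, 5, 5 and 1) were hardly read. Such counts are too few to say whether these genes followed the sum. Flt3 is itself on that list. Neutrophil markers, 13 of 13 listed, summed to 33339, 25003, 45453 and 44925, and of 13 tested 8 were higher in MPP2 cultures and 3 lower. In bulk RNA, more cells of a type and more RNA per cell cannot be told apart, and the part of these cells in the receptor differences was not tested.

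**Figure D3:**
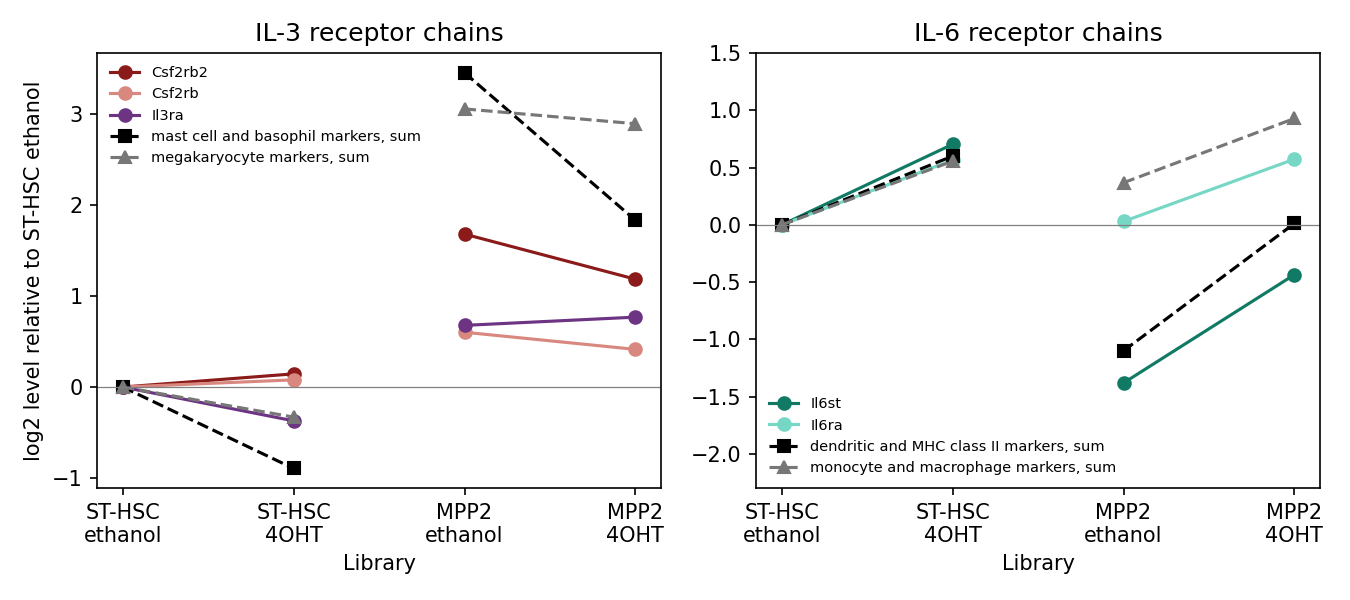
Level in each library as log2 relative to ST-HSC ethanol, for chains of the IL-3 receptor beside summed mast cell and basophil and megakaryocyte markers (left) and chains of the IL-6 receptor beside the summed dendritic list, mostly MHC class II genes, and summed monocyte and macrophage markers (right). Lines join ethanol and 4OHT within a cell type. The mast cell and basophil sum and Csf2rb2 are highest in MPP2 ethanol (1806 and 456 normalized counts). The sum of the dendritic list and Il6st are lowest there (93.2 and 11.8).

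The comparison of 4OHT with ethanol asks how the receptors differ where 4OHT was given to switch on MLL-ENL. No library came from 4OHT-treated cells without the fusion gene, so 4OHT itself and MLL-ENL cannot be told apart. Both chains of the IL-6 receptor stood higher with 4OHT in both cell types, by 1.46-fold to 1.93-fold. Kit was also above its ethanol library in both, and the chains for IL-3, GM-CSF and G-CSF were higher in one cell type and lower in the other. None of the 8 tested receptors passed 2-fold in either cell type. In ST-HSC cultures 2.1% of tested genes were at least 2-fold higher and 0.545% lower, and in MPP2 cultures 1.32% and 1.7%. The shared effect passed limma's threshold for 0 of 8 receptors, where 0.044% of tested genes were called higher and 0.0088% lower. At an unadjusted p under 0.05 the same limma fit had 1615 of 11370 genes, among them Il6st and Il6ra.

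Il6st went from 30.8 to 50.2 normalized counts in ST-HSC cultures, a ratio of 1.63 (1.44 to 1.84), and from 11.8 to 22.8 in MPP2 cultures, a ratio of 1.93 (1.58 to 2.35). The 4OHT library was the higher one in both cell types. The shared log2 difference was 0.81 ± 0.14 (limma, adjusted p = 0.115). It passed the threshold under 4 of 8 alternatives, edgeR on recovered reads (adjusted p = 0.00663), limma with trend (0.00324), 2 added before logs (0.0329) and a filter at a mean of 5 (0.0273). These called 2.47%, 2.96%, 1.58% and 1.7% of tested genes higher.

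Il6ra went from 12.7 to 18.8 in ST-HSC cultures (ratio 1.48, 1.22 to 1.80) and from 13.0 to 18.9 in MPP2 cultures (1.46, 1.20 to 1.78). The 4OHT libraries agreed closely with each other, as did the ethanol libraries. Its shared log2 difference was 0.54 ± 0.13 (limma, adjusted p = 0.184), and no alternative called it (0.066 to 0.304). Between the same libraries, the sum of the dendritic list went from 199.6 to 303 normalized counts (ST-HSC) and from 93.2 to 201 (MPP2). Monocyte and macrophage markers, 11 of 13 listed, went from 2309 to 3395 and from 2979.5 to 4396, with C1qb at 0 reads in MPP2 ethanol. Most of that rise was Lyz2, which went from 1113 to 1924 and from 1692 to 2768. Of 10 tested members, 10 stood higher with 4OHT in ST-HSC cultures, and 8 stood higher and 2 lower in MPP2 cultures. The part of either list in the Il6st and Il6ra values was not tested.

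The stretches just before the start sites of Il6ra and Il6st are shown because these chains of 1 receptor stood higher together, and that of Csf2rb2 because it had the largest called difference between cell types. Each is 250 bases, from RefSeq on GRCm38.p6, where 8 of the 9 receptors had an entry. The motifs searched on both strands were a STAT motif, TTCNNNGAA, and the same with 1 more N, the interferon response element, the CCAAT box, a GATA factor motif spelled AGATAA and a PU.1 motif spelled GAGGAAGT. Matches are in capitals, and no matches overlap. Il6st is chr13:112463820-112464069 (plus strand), Il6ra is chr3:89913197-89913446 (minus strand) and Csf2rb2 is chr15:78305722-78305971 (minus strand).
Il6st: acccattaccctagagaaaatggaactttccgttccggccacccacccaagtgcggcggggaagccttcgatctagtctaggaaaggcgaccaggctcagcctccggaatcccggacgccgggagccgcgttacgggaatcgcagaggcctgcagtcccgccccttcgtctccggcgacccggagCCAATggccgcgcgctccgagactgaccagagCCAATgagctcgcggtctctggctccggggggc
Il6ra: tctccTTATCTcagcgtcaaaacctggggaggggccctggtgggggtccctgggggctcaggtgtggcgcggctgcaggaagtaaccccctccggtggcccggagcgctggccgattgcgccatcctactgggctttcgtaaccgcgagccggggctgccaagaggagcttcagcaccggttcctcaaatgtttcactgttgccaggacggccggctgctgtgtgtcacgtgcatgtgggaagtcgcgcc
Csf2rb2: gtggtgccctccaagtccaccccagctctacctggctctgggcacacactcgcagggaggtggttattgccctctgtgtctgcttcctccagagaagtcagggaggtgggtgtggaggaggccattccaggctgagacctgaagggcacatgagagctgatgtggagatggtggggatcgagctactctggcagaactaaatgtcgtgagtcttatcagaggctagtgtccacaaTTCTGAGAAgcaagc
The Il6st stretch held 2 matches to CCAAT, and 33.8% of 32851 promoters of this length hold 1 or more. The Il6ra stretch held 1 match to AGATAA, on the opposite strand (9.99% of promoters), and the Csf2rb2 stretch 1 match to TTCNNNGAA (7.02%), starting 15 bases before the start site. The stretches differ in base composition, with 26 CpG in Il6st, 18 in Il6ra and 3 in Csf2rb2. A match describes letters only.

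Kit stood higher with 4OHT by a ratio of 1.22 in ST-HSC cultures (1.12 to 1.32) and 1.08 in MPP2 cultures (0.990 to 1.17), with a shared log2 difference of 0.19 ± 0.13 (limma, adjusted p = 0.585). Markers of mast cells, which carry Kit, and of basophils form 1 list, which moved the other way. Its medians over 11 tested genes were -0.98 (ST-HSC) and -1.52 (MPP2) for the log2 difference between 4OHT and ethanol. Of these genes 1, the protease gene Gzmb, fell by the shared test (limma, adjusted p = 0.0477). That call was lost with 0.1 added, without the filter and with either other scaling, where 0 genes were called lower. Stem and progenitor markers, a list that holds Kit, had medians over 10 tested genes of 0.40 (ST-HSC) and -0.26 (MPP2). Their sum went from 141 to 215 and from 199.6 to 193. Kit itself made up 76.4 and 92.9 of it in ST-HSC cultures and 84.1 and 90.5 in MPP2 cultures. The part of either list in the Kit values was not tested. Over all tested genes the median was near 0 in both.

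The beta chains differed in direction between cell types. In ST-HSC cultures Csf2rb2 stood higher with 4OHT by a ratio of 1.11 (1.04 to 1.18) and Csf2rb by 1.06 (1.03 to 1.09). In MPP2 cultures Csf2rb2 went from 456 to 324, a ratio of 0.709 (0.682 to 0.738), and Csf2rb from 1053 to 925, a ratio of 0.878 (0.856 to 0.899). The ratio of their sum was 1.06 (1.04 to 1.09) for ST-HSC cultures and 0.827 (0.810 to 0.844) for MPP2 cultures. Between the same libraries the mast cell and basophil sum was lower with 4OHT in both cell types. It went from 165 to 88.5 in ST-HSC cultures, where both beta chains stood higher, and from 1806 to 587 in MPP2 cultures. Its part in the beta chain values was not tested.

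The alpha chains stood the other way in MPP2 cultures. Csf2ra had a ratio of 1.28 (1.19 to 1.38) there and 0.978 (0.900 to 1.06) in ST-HSC cultures, and Il3ra had 1.06 (0.851 to 1.33) and 0.773 (0.571 to 1.04). Csf3r had 1.17 (1.08 to 1.27) in MPP2 and 0.955 (0.879 to 1.04) in ST-HSC cultures. The 3 intervals in ST-HSC cultures, and that of Il3ra in MPP2 cultures, include 1. The Flt3 ratio was 2.07 (0.718 to 6.71) for ST-HSC cultures and 3.34 (0.268 to 175) for MPP2 cultures, both from too few reads to tell a difference.

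**Figure D4:**
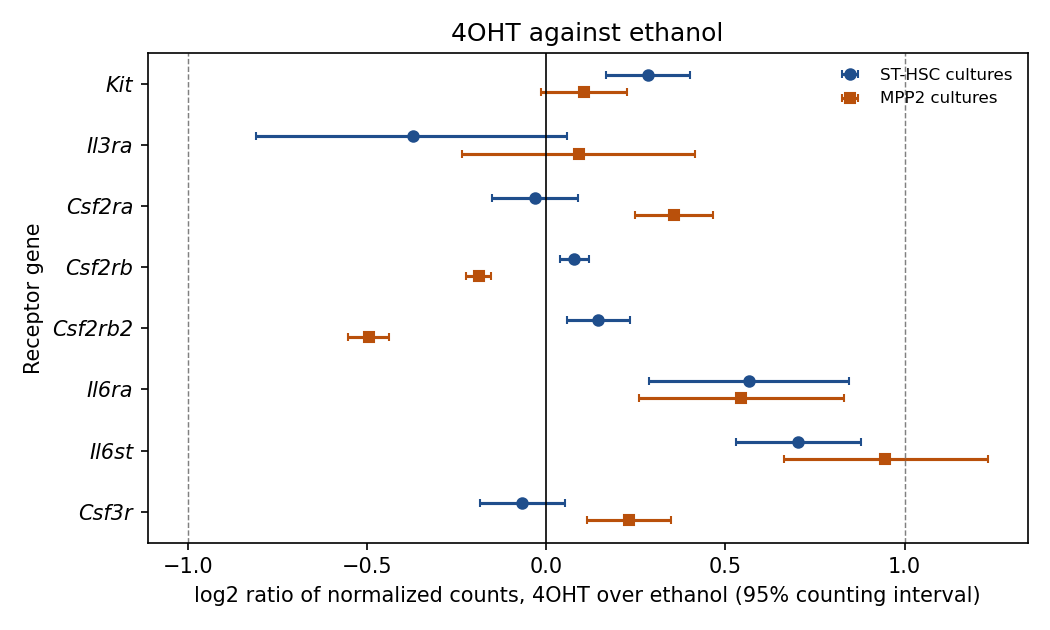
log2 ratio of normalized counts with 4OHT over ethanol for the 8 tested receptors, in ST-HSC (circles) and MPP2 (squares) cultures, with bars for the 95% counting interval and dashed lines at 2-fold. Il6st and Il6ra lie right of 0 in both cell types, and the beta chains Csf2rb and Csf2rb2 lie on opposite sides.

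Genes around the receptors were taken from lists of ligands, other cytokine receptors, kinases and adaptors, STAT factors, negative regulators and response genes. None of their tested members passed limma's test of the shared 4OHT effect. Their counts in the shared cell type test stand beside 9.88% of all tested genes called higher and 5.31% lower. Of the ligand genes, Il3 and Csf2 were not listed, and Kitl and Csf3 were scarce, at most at 0.36 normalized counts. All 3 tested ligands were higher in MPP2 cultures by the shared cell type test. Il6 had 3.13, 1.65, 56.9 and 7.22 normalized counts, a log2 cell type difference of 2.91 (limma, adjusted p = 0.03). It was highest in MPP2 ethanol, where Il6st was lowest. Csf1, the macrophage growth factor M-CSF, had 23.99, 37.4, 85.4 and 80.3 (adjusted p = 0.0214). Flt3l was at 3.13, 3.09, 4.76 and 5.21 (adjusted p = 0.0444), with 20.1% of its sequence words shared with another gene.

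Of the other cytokine receptors, 17 of 19 were listed and 10 tested, of which 3 were higher in MPP2 cultures and 0 lower. Among these, Crlf2, the receptor for the cytokine TSLP, had 23.8, 28.7, 41.6 and 42.3 normalized counts (limma, adjusted p = 0.0408). Epor, the erythropoietin receptor, was higher too. Csf1r, the M-CSF receptor, stood at 66.97 and 129.6 in ST-HSC cultures and 54.2 and 128 in MPP2 cultures, a log2 4OHT difference of 0.95 and 1.24 with a shared adjusted p of 0.0895 in limma. Csf1r is itself on the monocyte and macrophage marker list. Il7r, for IL-7, stood at log2 1.19 with 4OHT among ST-HSC cultures and at -0.19 among MPP2 cultures. Il4ra, the most abundant of this list, stood at 0.37 and 0.35.

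Of 17 kinases and adaptors 2 were higher in MPP2 cultures, near the 9.88% over all genes, and 0 lower, among them the adaptor Gab2 (61.3, 54.3, 109.9 and 90.3 normalized counts, limma adjusted p = 0.028). Akt1 had the highest level there, 314 to 398. Of 7 STAT genes 0 passed either test, with Stat6 the most abundant at 169 to 259.8. With 4OHT, the STAT list had a median log2 difference of 0.10 among ST-HSC cultures and 0.21 among MPP2 cultures.

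Of 22 negative regulators 2 were higher in MPP2 cultures, also near that share, and 0 lower. Socs1, an inhibitor of JAK kinases, had 15.8, 23.7, 32.4 and 43.4 normalized counts (limma, adjusted p = 0.0212), and Pias3, an inhibitor of STAT3, 8.55, 8.77, 13.4 and 14.6 (adjusted p = 0.0376). The phosphatase gene Ptpn6, which damps cytokine receptors, was the most abundant at 310.4 to 434. Of 17 response genes 1 was lower in MPP2 cultures, Myc, at 168, 174, 111 and 106 (adjusted p = 0.0383), and 0 were higher. Osm, a cytokine gene induced through STAT5, had 108, 91.3, 231 and 82.9, and the immediate early gene Egr1 had 73.3, 58.5, 158 and 54.5. Both were more than 2-fold lower with 4OHT in MPP2 cultures, at log2 -1.47 and -1.53, without passing the shared test. Ccnd3, a cyclin, was the most abundant response gene, at 513 to 715.

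Genes with the most similar profile were ranked by the distance between log2 profiles centred over the 4 libraries, among genes averaging 10 normalized counts or more, for receptors with a range of at least 1 in log2. With 4 points this describes shape only. Nearest to Il6st of 8166 genes were H2-Ab1 (distance 0.17) and H2-Eb1 (0.20), chains of MHC class II, and Rab3il1 (0.22). H2-Ab1 stood at 33.4, 47.1, 11.4 and 21.5 normalized counts, and is on the dendritic list. Nearest to Csf2rb2 were Furin (0.14), a protease that cuts precursor proteins, Lilr4b (0.15), an inhibitory leukocyte receptor, and Fyb (0.17), an adaptor of blood cells. Furin stood at 246, 241, 748 and 505. Nearest to Il3ra were Sh3bp5 (0.06), Pram1 (0.07) and Mcf2l (0.08), and nearest to Flt3, whose profile rests on at most 12 reads a library, were Psmb10 and Dph1.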

How the data were processed

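RNA-seq was done on 4 libraries, 1 for each pair of cell type and treatment, from 200 ng of total RNA with rRNA depletion and a strand-specific kit, per the labels. The authors deposited a signal per gene symbol called normalized counts. The submitters' processing notes name mm10, edgeR, RSEM, Bowtie2 and Trimmomatic 0.36, with no roles, and the authors' gene annotation is not stated there. All 57292 values were within 1e-06 of a whole multiple of 1 read, so whole reads were recovered. The deposited scaling matched TMM factors recomputed from those reads (0.966 to 1.02). Every listed gene had 4 or more reads over the libraries.

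Genes with a mean of at least 1 were tested on log2(normalized count + 0.5) with limma 3.58.1 in R 4.3.3, with cell type and treatment as additive terms (3 coefficients), 1 residual degree of freedom a gene, and Benjamini-Hochberg adjustment over 11370 genes at 0.05. This model takes the cell type difference to be alike in both treatments. Comparisons of single libraries had no test, and used 2-fold in log2 values and exact conditional binomial 95% intervals on reads. Reads without molecular identifiers are not independent molecules, so these cover counting error only. At 0 reads the limit is 3 reads, worth 0.209 to 0.241 normalized counts. Alternatives were the added constant, the filter, a variance trend, scaling by DESeq2 1.42.0 or total reads, and edgeR 4.0.16. The fits were also run on simulated data, which held no cell type difference and the same 4OHT effect in both cell types. Such data cannot show how reliable the calls reported here are.

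The receptors, 17 gene lists and tests were chosen with earlier results of these data known. All receptors were named, and from each list of pathway genes the members past 2-fold with 4OHT or past a shared test, at most 4 by size, with the most abundant member, the 3 genes of nearest profile for each receptor with a log2 range of at least 1, and Epor, chosen after its values were seen. Some genes that this rule names are not reported here. Lengths, coordinates and coding sequences are from GENCODE M21 (GRCm38, the assembly of mm10). Lists of erythroid, eosinophil, lymphoid and stromal markers were measured too. Their summed levels, in the order used in the text, were 711, 539.6, 756 and 433 for erythroid, 34.4, 31.8, 217 and 108 for eosinophil, 81.4, 66.5, 81.1 and 68.8 for lymphoid and 87.8, 81.3, 173 and 126 for stromal and endothelial genes. The erythroid sum was mostly Tfrc (708, 538, 593 and 413). Its globin genes showed another order, with Hbb-b1 at 0, 0, 41.2 and 1.28 and Hba-a1 at 0.21, 0.14, 46.0 and 2.49. Most of the lymphoid sum was Nkg7 (74.4, 50.1, 57.3 and 47.8). Most of the stromal and endothelial sum was Pecam1 (80.6, 71.8, 159.9 and 111). Stem and progenitor markers summed to 141, 215, 199.6 and 193, with Kit alone at 76.4, 92.9, 84.1 and 90.5. Intervals were computed with scipy 1.17.1.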

Additional observations from a re-analysis of the deposited data

Results flagged for a closer look

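For 5 receptors the single 4OHT library stood on opposite sides of its ethanol library in ST-HSC and MPP2 cultures, which flagged them. The difference was not tested, since each side is 1 pair of libraries. The log2 4OHT difference in MPP2 minus that in ST-HSC cultures was -0.64 for Csf2rb2 and -0.267 for Csf2rb, and for both genes the counting intervals exclude a ratio of 1 in each cell type. It was 0.433 for Il3ra, 0.385 for Csf2ra and 0.297 for Csf3r, where the ST-HSC interval includes 1.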

How the results depend on the processing

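No paired analysis was possible because each group has 1 library and the labels give no replicate numbers. For the 8 tested receptors, 60 of 64 alternative values of the shared 4OHT effect kept their direction and side of the threshold, and the other 4 were Il6st newly passing. For the shared cell type effect 54 of 64 did. The exceptions were 6 new calls (Csf2rb and Csf2ra), 3 lost ones (Il3ra with 0.1 added and without a filter, Csf2rb2 without a filter, adjusted p = 0.0505) and Il6ra, which had log2 -0.015 with total-read scaling. The ranks per kilobase were the same with the longest transcript as length. Single-library differences stayed within their counting interval in 188 of 192 cases, and the other 4 were the beta chains with total-read scaling. Among the 188 are the changes of the filter, which cannot alter the ratio of a single gene.

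Counts over all genes moved far more, and the cause was not tested. The shared 4OHT effect, 5 higher and 1 lower, became 0 and 0 with 0.1 added, without a filter and with either other scaling. It became 180 and 48 with 2 added, 162 and 68 with a mean of at least 5, 337 and 261 with trend, and 281 and 211 in edgeR. The shared cell type effect, 1123 higher and 604 lower, became 674 and 178 with 0.1 added, 490 and 69 without a filter, 1899 and 1862 with trend, and 1873 and 1589 in edgeR. Its lower count became 1294 with 2 added, 1395 with a mean of at least 5 and 394 with median-of-ratios scaling.

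Genes at least 2-fold apart fell in number with 2 added and with a mean of at least 5, where a gene needs a larger ratio or fewer genes are tested. For 4OHT in ST-HSC they became 139 and 125 higher and 15 and 30 lower, and 108 lower with 0.1 added. For 4OHT in MPP2 they became 76 and 83 higher and 109 and 79 lower. For cell type in ethanol they became 400 higher with a mean of at least 5, and 49 and 61 lower, with 149 lower at 0.1 added. Under 4OHT they became 387 and 370 higher and 89 and 113 lower.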
